A study of Saccharomyces cerevisiae with 12 samples.

Results

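This account follows 33 genes of the general stress response and of stationary phase in the budding yeast Saccharomyces cerevisiae. They were chosen by name as known targets of the stress transcription factors Msn2 and Msn4, or as genes used in stationary phase, outside central metabolism. The choice was made with earlier results of these data known, so counts of members set beside all transcripts are descriptions. All 33 of 33 were found among the 5967 transcripts kept from the deposited tables, and all 33 passed the filter on low values in every comparison. Transcripts were measured by RNA sequencing in 12 libraries, in 6 groups of 2. The mutant, edc3∆lsm4∆C, carries a deletion of EDC3 and lacks the Q/N-rich C-terminal domain of Lsm4p, and the wild type (WT) is BY4741. Each strain was grown with 100 mM NaClO4 (sodium perchlorate) present throughout growth, or untreated. Further WT cultures were shocked with a wave of 5.6 Mach intensity and grown again, or were left unshocked. All cells were grown in medium without uracil to the same range of optical density, so none of the groups was labelled as a stationary phase culture.

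When budding yeast meets osmotic, oxidative or heat stress, or runs short of nutrients, protein kinase A activity falls, and Msn2 and Msn4 enter the nucleus and bind the stress response element, a short promoter sequence with the core AGGGG. Gis1 binds the related post-diauxic shift element, with the core AGGGAT, as glucose runs out. The induced genes encode enzymes that remove peroxides, cell wall proteins, vacuolar proteases and proteins that help resting cells survive. Edc3 and the Lsm4 C-terminal domain help assemble P-bodies, the condensates of mRNA and decay factors that grow larger in stressed and resting yeast.

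The 12 libraries held 14108937 to 18360737 reads on the transcripts kept. The labels do not say that the 2 libraries of a group came from separate cultures. The p-values judge group differences against the spread between these libraries, which may be technical variation. EDC3, the deleted gene, had 1.82 and 3.83 normalized reads in the untreated mutant libraries, against 763 and 972 in untreated WT, as the labels state. The strains also differed in marker genes: of 16 mating-type, auxotrophy and target genes examined, 7 were higher and 7 lower in the untreated mutant. These are 43.8% each, where 11.0% of all transcripts were higher and 11.6% lower. The mutation and the strain background therefore cannot be told apart. Libraries of the same group stood apart in the genes described here. Untreated WT replicate 1 lay above replicate 2 for 33 of 33 members, by a median of 0.81 on the log2 scale, against a median of -0.01 over all transcripts tested. Untreated mutant replicate 1 lay above replicate 2 for 32 of 33 members, by a median of 0.38, against -0.0043 over all transcripts. The part of this split in the results was not tested, and counts that depend on it are given without the library concerned. In bulk samples, fewer cells that express a gene and less RNA per cell cannot be told apart.

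The promoters of the members were searched for these cores, because the members were chosen as targets of the factors that bind them. A window of 300 bases, 350 to 51 bases before the start codon, was read from the R64 assembly in RefSeq, whose transcript accessions and versions match all 5970 transcripts of the tables. The files name no build. AGGGG, or CCCCT on the other strand, occurred in 26 of 33 windows, and in 23.1% of the 5947 windows of the genome that could be read. It occurred 2 or more times in 16 of 33 windows, against 3.90% of all. AGGGAT, or ATCCCT, occurred in 12 of 33 windows, against 9.48% of all. TTACTAA, or TTAGTAA, which is not one of these cores, was also counted and occurred in 2 of 33, against 7.33% of all. AGGGG and AGGGAT share their first 4 letters and were counted separately. The windows of DDR2 and PAI3, the 2 of the members with 3 AGGGG matches that had the largest perchlorate response in WT, and the window of SPG1, the member without a match that had the largest, are shown 5′ to 3′ on the strand of the gene, with both cores in capitals on either strand. They lie at chrXIII:610416-610715 (PAI3), chrXV:231806-232105 (DDR2) and chrVII:962868-963167 (SPG1), all on the minus strand.
PAI3: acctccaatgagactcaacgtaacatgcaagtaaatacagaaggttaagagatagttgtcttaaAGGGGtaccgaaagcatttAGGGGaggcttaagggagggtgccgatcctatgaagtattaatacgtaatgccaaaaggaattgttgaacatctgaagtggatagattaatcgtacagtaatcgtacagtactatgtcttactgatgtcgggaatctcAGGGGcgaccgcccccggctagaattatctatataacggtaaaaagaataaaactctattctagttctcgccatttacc
DDR2: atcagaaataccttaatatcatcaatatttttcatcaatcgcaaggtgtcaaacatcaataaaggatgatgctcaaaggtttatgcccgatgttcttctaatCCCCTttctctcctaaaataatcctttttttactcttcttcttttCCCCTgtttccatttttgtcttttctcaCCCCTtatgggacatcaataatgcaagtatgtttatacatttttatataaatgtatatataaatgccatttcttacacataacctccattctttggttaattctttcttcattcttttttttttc
SPG1: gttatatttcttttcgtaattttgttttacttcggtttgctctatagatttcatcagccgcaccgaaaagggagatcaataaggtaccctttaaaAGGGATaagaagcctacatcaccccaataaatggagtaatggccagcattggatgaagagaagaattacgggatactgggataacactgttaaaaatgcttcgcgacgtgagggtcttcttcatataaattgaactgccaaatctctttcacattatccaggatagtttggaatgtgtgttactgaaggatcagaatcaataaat
PAI3 held 3 matches to AGGGG on the strand of the gene, and DDR2 held 3 on the other strand, within 248 to 175 bases of the start codon. SPG1 held no AGGGG and 1 AGGGAT, starting 255 bases before the start codon. A match describes letters, not a bound site.

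Perchlorate-grown WT was compared with untreated WT to ask how these genes stand during continuous growth in the salt. Of the 33 members 30 rose and 0 fell, where 14.3% of all 5664 transcripts tested rose (limma, Benjamini-Hochberg adjusted p under 0.05). Rises of at least 2-fold were called for 24 members, and for 325 of all 5664 transcripts. The median log2 fold change of the members was 1.84, against 0.00 over all transcripts. This median was 2.17 without untreated WT replicate 1 and 1.28 without untreated WT replicate 2. The perchlorate libraries lay above both untreated libraries for 32 members, as they did for 33.7% of all transcripts. Members took 1.86% and 1.63% of all reads in perchlorate-grown WT, against 0.699% and 0.467% in untreated WT. Fold changes are on the scale of log2(normalized reads + 1) with the standard error (SE) of limma. All 6 stress defence genes, all 5 of the cell surface group, all 4 of mitochondria and endoplasmic reticulum and all 6 of proteolysis rose. So did 3 of 4 stationary phase genes and 1 of 2 transcription factors. DDR2 was placed in the cell surface group, although the sources used here do not show its product at the surface.

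**Figure D1:**
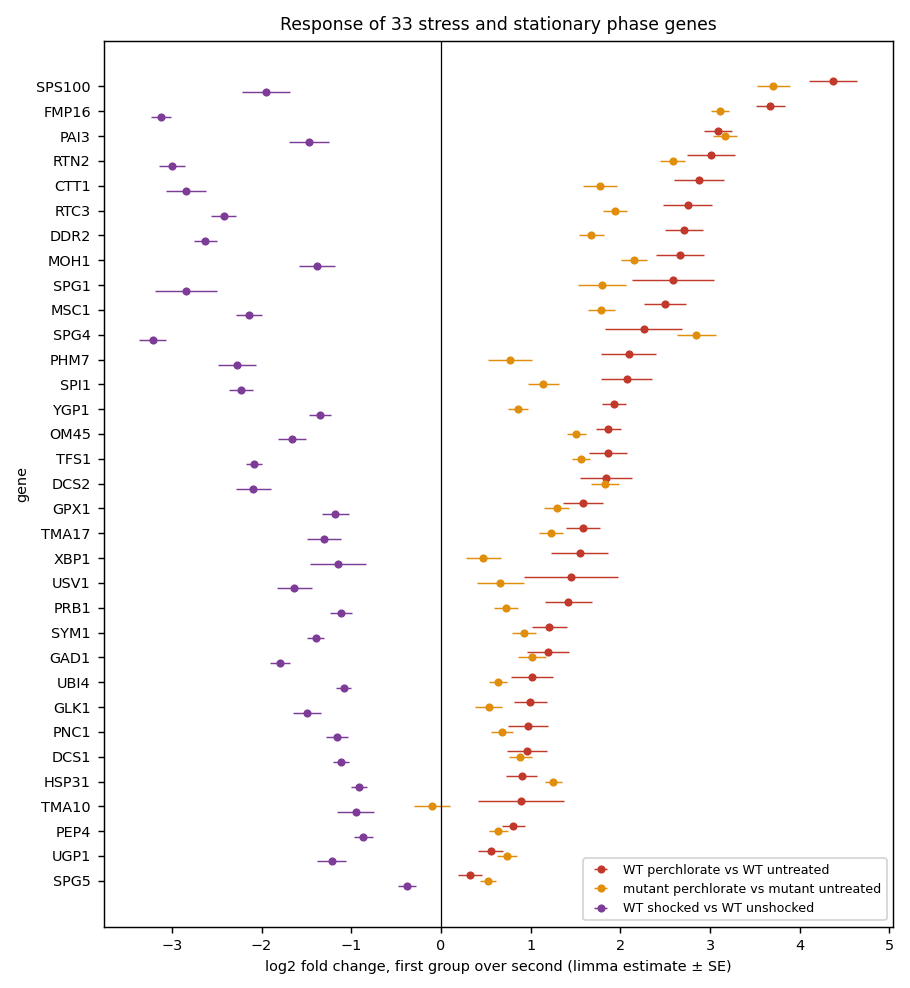
Log2 fold change ± SE (limma, 2 libraries a group) of the 33 members for perchlorate in WT, perchlorate in the mutant and shock in WT, ordered by the WT perchlorate value. Perchlorate values lie right of 0 for 33 members in WT and 32 in the mutant, with TMA10 of the mutant at -0.10, and all 33 shock values lie left of 0.

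Among genes of stress defence, CTT1, the cytosolic catalase T that breaks down hydrogen peroxide, changed most. It had 12939 and 10105 normalized reads in perchlorate-grown WT, against 2252 and 1073 in untreated WT. The groups lay far apart, although the untreated libraries differed in proportion by more than the treated ones. Its log2 fold change was 2.88 ± 0.28 (adjusted p = 0.000103). GPX1, a glutathione peroxidase, rose by 1.59 log2, SYM1, a protein of the inner mitochondrial membrane, by 1.21, GAD1, the glutamate decarboxylase, by 1.19, PNC1, the nicotinamidase of NAD salvage, by 0.98 and HSP31, a DJ-1 family protein that detoxifies methylglyoxal, by 0.90. The catalase thus had a larger estimate than the other 5, which lay between 0.90 and 1.59.

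In the cell surface group, SPS100, a glycoprotein of the spore wall, had the largest log2 fold change of all 33 members. It had 1961 and 997 normalized reads in perchlorate-grown WT, against 68.0 and 65.0 in untreated WT. The untreated libraries were nearly level and the treated ones differed by 0.98 on the log2 scale, the widest gap among the 33 members in that group. Its log2 fold change was 4.37 ± 0.27 (adjusted p = 6.7e-06, 20.7-fold). The annotation places a noncoding transcript antisense to SPS100, and the sources used here do not give the strand counted, so its reads are uncertain. DDR2, a small protein induced by many stresses and first found after DNA damage, had 10599 and 10663 normalized reads in perchlorate-grown WT, against 2128 and 1241 in untreated WT. The treated libraries were almost equal and both lay above both untreated ones. DDR2 rose by 2.71 ± 0.22 log2 (SE, adjusted p = 2.32e-05). PHM7, a membrane protein of unknown function, had 6332 and 5777 normalized reads in perchlorate-grown WT, against 2170.4 and 926 in untreated WT, and rose by 2.09 ± 0.30 log2 (adjusted p = 0.00122). SPI1, a wall protein that protects against weak acids, rose by 2.07 log2 and YGP1, a secreted glycoprotein made when nutrients run short, by 1.93. YGP1 was the member with the most reads in both perchlorate-grown WT libraries.

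Of the genes for mitochondrial and endoplasmic reticulum proteins, FMP16, a small protein found in the mitochondrial proteome, had 3408 and 3029 normalized reads in perchlorate-grown WT, against 286 and 221 in untreated WT. Replicates were close together in both groups, and FMP16 rose by 3.67 ± 0.16 log2 (adjusted p = 7.41e-07). RTN2, a reticulon that bends the endoplasmic reticulum membrane, had 7449 and 6243 normalized reads in perchlorate-grown WT, against 1193 and 598 in untreated WT. The lower untreated library was replicate 2, the pattern of most members, and RTN2 rose by 3.01 ± 0.26 log2 (adjusted p = 4.71e-05). MSC1, named for a role in meiotic sister chromatid recombination, had 19745 and 15903 normalized reads in perchlorate-grown WT, against 4174 and 2358 in untreated WT, and rose by 2.50 ± 0.23 log2 (adjusted p = 8.19e-05). OM45, a protein of the mitochondrial outer membrane, rose by 1.87 log2.

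The stationary phase genes MOH1, SPG1, SPG4 and SPG5 are known for their need in survival of resting cells, the SPG genes at high temperature. MOH1 had 455 and 472 normalized reads in perchlorate-grown WT, against 99.4 and 52.4 in untreated WT, and rose by 2.66 ± 0.27 log2 (adjusted p = 0.000113). SPG4 had 783 and 723 normalized reads in perchlorate-grown WT, against 292 and 83.2 in untreated WT, and rose by 2.26 ± 0.43 log2 (adjusted p = 0.00499). Untreated replicate 1 of SPG4 lay far above replicate 2, though below both treated libraries. SPG1 was the member with the fewest reads in perchlorate, with 119 and 123 normalized reads in perchlorate-grown WT, against 35.5 and 10.3 in untreated WT, and rose by 2.59 ± 0.46 log2 (adjusted p = 0.0035). SPG5, which aids proteasome assembly in stationary phase, had a log2 fold change of 0.32 (adjusted p = 0.0965) and did not pass. By DESeq2 on the recovered reads, SPG4 (adjusted p = 0.0581) and XBP1 (adjusted p = 0.0670) did not pass either.

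Within proteolysis, PAI3, the inhibitor of the vacuolar protease Pep4, had 1075 and 1045 normalized reads in perchlorate-grown WT, against 137 and 112 in untreated WT. Replicates were nearly level in both groups, and PAI3 rose by 3.09 ± 0.16 log2 (adjusted p = 2.1e-06). Its target PEP4, proteinase A, rose by 0.81 log2, and PRB1, proteinase B, by 1.42. TFS1, the inhibitor of carboxypeptidase Y, rose by 1.86 log2, TMA17, a chaperone of proteasome assembly, by 1.58 and UBI4, the stress-induced polyubiquitin gene, by 1.01. The estimates of the 2 inhibitors, PAI3 and TFS1, were both larger than those of the 2 proteases, a difference between genes that was not tested.

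Among the remaining members, RTC3, a small protein with a fold shared with a ribosome maturation factor, had 9365 and 9027 normalized reads in perchlorate-grown WT, against 1969.5 and 948 in untreated WT. Both treated libraries lay above both untreated ones, and RTC3 rose by 2.75 ± 0.27 log2 (adjusted p = 9.92e-05). DCS2, an inhibitor of the scavenger decapping enzyme, rose by 1.84 log2 and DCS1, the enzyme itself, by 0.96. The transcripts of DCS1 and DCS2 are 69.3% identical over 1011 bases, below the limit used here for near-identical copies. GLK1, the glucokinase, rose by 1.00 log2 and UGP1, which makes UDP-glucose for glycogen, trehalose and the wall, by 0.56. GLK1 shares 106 bases with another annotated gene on its strand, so its reads are uncertain. XBP1, a repressor of transcription made in stress and quiescence, rose by 1.55 log2. USV1, a zinc finger transcription factor, had a log2 fold change of 1.45 (adjusted p = 0.065) and TMA10, a protein that associates with ribosomes, of 0.89 (adjusted p = 0.194), and neither passed. Without untreated WT replicate 1 both passed, at 2.53 for USV1 and 1.93 for TMA10. Without untreated WT replicate 2 the value of TMA10 turned to -0.14. Without perchlorate replicate 1, DCS1 (0.79), HSP31 (0.76), UGP1 (0.59) and UBI4 (0.92) no longer passed, and UGP1 was also lost without perchlorate replicate 2 (0.52) or untreated replicate 2 (0.44).

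**Figure D2:**
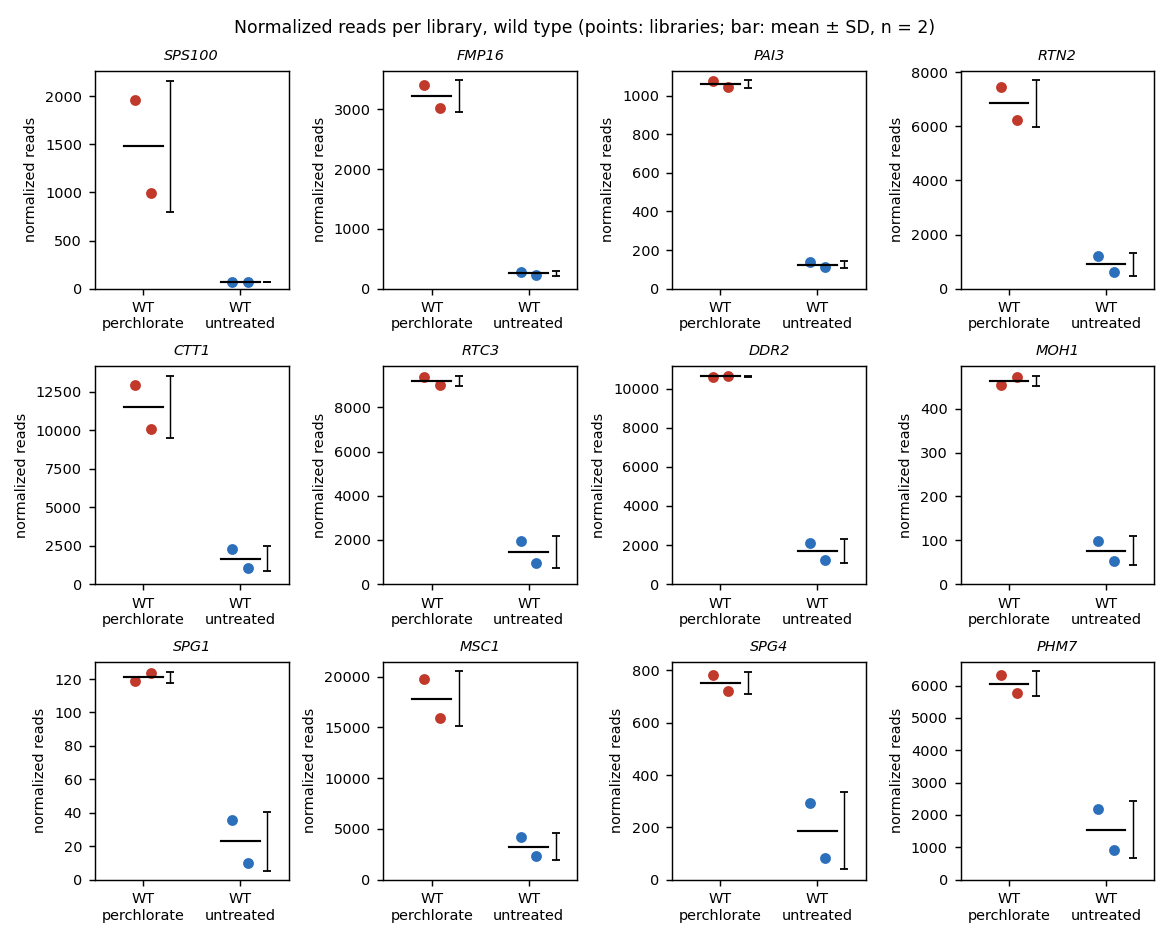
Normalized reads per library (vertical axis, starting at 0) of the 12 members with the largest log2 fold change in WT, with perchlorate-grown WT left and untreated WT right; points are libraries and bars are mean ± SD (n = 2). Both perchlorate points lie above both untreated points in all 12 panels, and untreated replicate 1 lies above untreated replicate 2 in each.

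Per kilobase of transcript, so that genes can be compared, the order of the members was not that of their responses. In perchlorate-grown WT the highest levels were those of DDR2, at 57155 normalized reads per kilobase, YGP1, at 42656, and RTC3, at 27370.1. In untreated WT they were YGP1, at 11230.3 normalized reads per kilobase, PEP4, at 10344, and GLK1, at 9348, followed by DDR2 at 9057. The lowest level in untreated WT was that of SPS100, at 67.8 normalized reads per kilobase, next to SPG1, at 79.5. SPG1 was also the lowest member in perchlorate, at 420.3 normalized reads per kilobase.

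The comparison of the perchlorate-grown with the untreated mutant asked how the same genes stand when the P-body assembly factors are altered. Again 30 members rose and 0 fell, where 18.0% of all 5670 transcripts rose. Rises of at least 2-fold were called for 19 members, and for 315 of all 5670 transcripts. The median log2 fold change of the members was 1.22, against 0.00 over all transcripts. This median was 1.39 without untreated mutant replicate 1 and 1.01 without untreated mutant replicate 2. Members took 1.76% and 1.70% of all reads in the perchlorate-grown mutant, against 0.887% and 0.691% in the untreated mutant. Both perchlorate libraries lay above both untreated libraries for 32 members, as for 34.6% of all transcripts.

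SPS100 again had the largest log2 fold change. It had 1760.1 and 2110.4 normalized reads in the perchlorate-grown mutant, against 180.2 and 119 in the untreated mutant, and rose by 3.71 ± 0.18 log2 (adjusted p = 1.38e-06). PAI3 had 1021 and 1301 normalized reads in the perchlorate-grown mutant, against 130.2 and 125 in the untreated mutant, and rose by 3.17 ± 0.14 log2 (adjusted p = 5.58e-07). The spore wall glycoprotein and the protease inhibitor were thus low in both untreated libraries and high in both treated ones. FMP16 had 2597 and 2902 normalized reads in the perchlorate-grown mutant, against 326 and 309 in the untreated mutant, and rose by 3.11 ± 0.10 log2 (adjusted p = 2.05e-07). RTN2 had 7890.1 and 7553 normalized reads in the perchlorate-grown mutant, against 1501 and 1106 in the untreated mutant, and rose by 2.58 ± 0.14 log2 (adjusted p = 2.05e-06). Replicates of both genes differed by far less than the groups did.

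Of the stationary phase genes, all 4 rose in the mutant. SPG4 had 1181 and 1494 normalized reads in the perchlorate-grown mutant, against 236 and 143 in the untreated mutant, and rose by 2.85 ± 0.21 log2 (adjusted p = 1.7e-05). MOH1 had 421 and 476 normalized reads in the perchlorate-grown mutant, against 108 and 91.9 in the untreated mutant, and rose by 2.16 ± 0.14 log2 (adjusted p = 7.62e-06). SPG1 rose by 1.80 log2 and SPG5 by 0.53. RTC3 had 11626 and 12651 normalized reads in the perchlorate-grown mutant, against 3624 and 2742 in the untreated mutant, and rose by 1.94 ± 0.13 log2 (adjusted p = 9.4e-06). The decapping inhibitor DCS2 had 2053 and 2219 normalized reads in the perchlorate-grown mutant, against 716 and 502 in the untreated mutant, and rose by 1.83 ± 0.15 log2 (adjusted p = 3.14e-05). In all of these the groups did not overlap.

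The other risers of the mutant ranged from 0.53 log2 for GLK1 to 1.79 for MSC1, with CTT1 at 1.77, DDR2 at 1.67, TFS1 at 1.56, OM45 at 1.51, GPX1 at 1.29, HSP31 at 1.25 and YGP1 at 0.86. Not passing were both transcription factors, USV1 at 0.66 (adjusted p = 0.0807) and XBP1 at 0.47 (adjusted p = 0.0922), and TMA10 at -0.10 (adjusted p = 0.735). XBP1 had 2478 and 2512 normalized reads in the perchlorate-grown mutant, against 2328 and 1392 in the untreated mutant, and without untreated mutant replicate 1 it passed at 0.84, as did USV1 at 1.16. TMA10 had 2881 and 2963 normalized reads in the perchlorate-grown mutant, against 4085 and 2398 in the untreated mutant, so the treated libraries lay between the untreated ones. Without untreated mutant replicate 2, TMA10 was called lower at -0.48, and GLK1 (0.28) and PHM7 (0.28) no longer passed. PHM7 had 7399 and 6920.4 normalized reads in the perchlorate-grown mutant, against 5913 and 2976 in the untreated mutant, and by DESeq2 its adjusted p was 0.297.

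The difference between the responses of the 2 strains was tested with an interaction term fitted to all 8 libraries, each response taken within its own table. Of the 33 members 1 had a difference, mutant minus WT, called below 0 and 0 one called above 0, where 0.686% of all 5684 transcripts were called below and 1.90% above. That member was YGP1. It had 29357 and 30653 normalized reads in the perchlorate-grown mutant, against 17927 and 15323 in the untreated mutant, and 45064 and 45793 in perchlorate-grown WT, against 12761 and 11159.6 in untreated WT. YGP1 was thus 1.81-fold higher with perchlorate in the mutant and 3.81-fold higher in WT, and all replicate pairs were close together. The log2 difference, mutant minus WT, was -1.07 ± 0.16 (SE, adjusted p = 0.00818), with adjusted p between 0.00617 and 0.0438 when any 1 of the 8 libraries was left out.

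**Figure D3:**
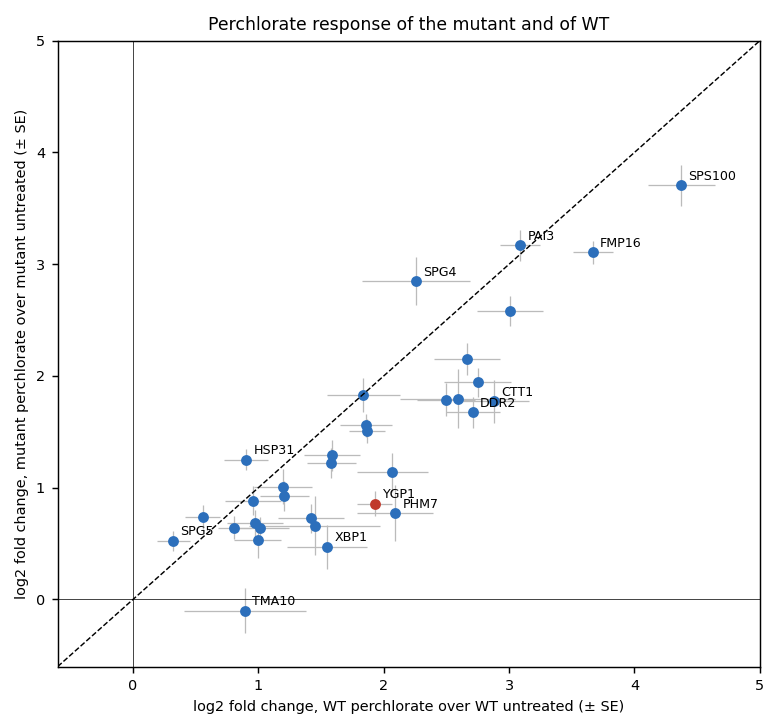
Log2 fold change ± SE for perchlorate in the mutant (vertical) against WT (horizontal) of the 33 members, with the dashed line at equal responses. The red point is YGP1, the 1 member that passed the interaction test, and 28 of 33 members lie below the line.

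The other 5 of the 6 members with the largest estimates did not pass. The log2 difference, mutant minus WT, was -1.32 ± 0.54 for PHM7 (adjusted p = 0.334), -1.11 ± 0.46 for CTT1 (adjusted p = 0.339) and -1.08 ± 0.51 for XBP1 (adjusted p = 0.412). For DDR2 it was -1.04 ± 0.32 (adjusted p = 0.185, and 0.0191 by DESeq2) and for TMA10 -0.99 ± 0.75 (adjusted p = 0.623). Their standard errors were 2 or more times that of YGP1. XBP1 had 2819.9 and 2188 normalized reads in perchlorate-grown WT, against 1305 and 551 in untreated WT. TMA10 had 2204 and 2028 normalized reads in perchlorate-grown WT, against 2335 and 554 in untreated WT, so its untreated libraries lay on both sides of the treated ones. DDR2 had 12114 and 15953 normalized reads in the perchlorate-grown mutant, against 4720.5 and 4021 in the untreated mutant, and CTT1 had 25839 and 23741 in the perchlorate-grown mutant, against 9217 and 5703 in the untreated mutant. In 28 of 33 members the estimate was below 0, with a median of -0.43, against 0.00 over all transcripts. Without untreated WT replicate 2, the library low in these genes, the estimate was below 0 in 16 of 33 members and the median was 0.02. The lean below 0 was thus not seen without that library, and which untreated WT library is unusual was not tested. Without untreated WT replicate 1, the library high in these genes, the estimate was below 0 in 30 of 33 members and the median was -0.75. In that fit TMA10 was at -2.03, PHM7 at -1.94, USV1 at -1.87, XBP1 at -1.70, CTT1 at -1.64 and SPI1 at -1.48. Across the 33 members the responses of the 2 strains had a Pearson r of 0.88, and 0.77 across 5615 transcripts. All points of a strain share the same 4 libraries, so this is a description.

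Untreated mutant and untreated WT were compared to ask how the members stand in the mutant without salt. These 4 libraries are also the untreated groups of the 2 responses above, so the values are not independent of them. Of the 33 members 6 were higher in the mutant and 2 lower, where 11.0% of all 5665 transcripts were higher and 11.6% lower. CTT1 stood first. It had 8379.9 and 5176 normalized reads in the untreated mutant libraries, against 2217 and 1067 in untreated WT, a log2 fold change of 2.10 ± 0.36 (adjusted p = 0.00994). DDR2 had 4292 and 3649.8 normalized reads in the untreated mutant libraries, against 2095 and 1235 in untreated WT, a log2 fold change of 1.30 ± 0.24 (adjusted p = 0.0124). The catalase and DDR2 were higher in both mutant libraries than in either WT library. PRB1, the proteinase B gene, had 8576 and 6696 normalized reads in the untreated mutant libraries, against 4234 and 2381 in untreated WT, a log2 fold change of 1.25 ± 0.27 (adjusted p = 0.0201). SPS100 was higher by 1.01 log2, OM45 by 0.57 and SPG5 by 0.47.

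PEP4 and UGP1 were the 2 members lower in the untreated mutant, with log2 fold changes of -0.66 ± 0.09 and -0.53 ± 0.13. PEP4 had 8258 and 7582 normalized reads in the untreated mutant libraries, against 12825 and 12109 in untreated WT (adjusted p = 0.00448). The genes of the 2 main vacuolar proteinases therefore differed in opposite directions, PRB1 higher and PEP4 lower in the mutant, and Pep4 is known to activate Prb1 by cleavage. PHM7 had 5376 and 2701 normalized reads in the untreated mutant libraries, against 2137 and 921 in untreated WT, a log2 fold change of 1.44 ± 0.45 (adjusted p = 0.0645). TMA10 had 3714 and 2176 normalized reads in the untreated mutant libraries, against 2299 and 551 in untreated WT, a log2 fold change of 1.34 ± 0.62 (adjusted p = 0.178). RTC3 had 3295 and 2489 normalized reads in the untreated mutant libraries, against 1939 and 943 in untreated WT, a log2 fold change of 1.08 ± 0.33 (adjusted p = 0.0588). These 3 did not pass, and the groups of TMA10 overlapped.

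This comparison depended most on single libraries. The median log2 fold change of the members was 0.33 with all libraries and 0.68 without untreated WT replicate 1. It was -0.07 without untreated WT replicate 2, 0.17 without untreated mutant replicate 1 and 0.47 without untreated mutant replicate 2. Without untreated WT replicate 1, PHM7 (2.05), TMA10 (2.36), RTC3 (1.60) and SPG1 (1.89) were among those that then passed, while UGP1 no longer did (-0.43). Without untreated mutant replicate 2, the calls of SPG5 (0.47) and UGP1 (-0.40) were lost. Without untreated mutant replicate 1, SPS100 (0.71), OM45 (0.45) and SPG5 (0.48) were lost while PHM7 (0.94), RTC3 (0.88) and TMA10 (0.95) passed, and without untreated WT replicate 2, SPS100 (0.98) and OM45 (0.46) were lost. CTT1, DDR2, PRB1 and PEP4 passed without any 1 library.

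**Figure D4:**
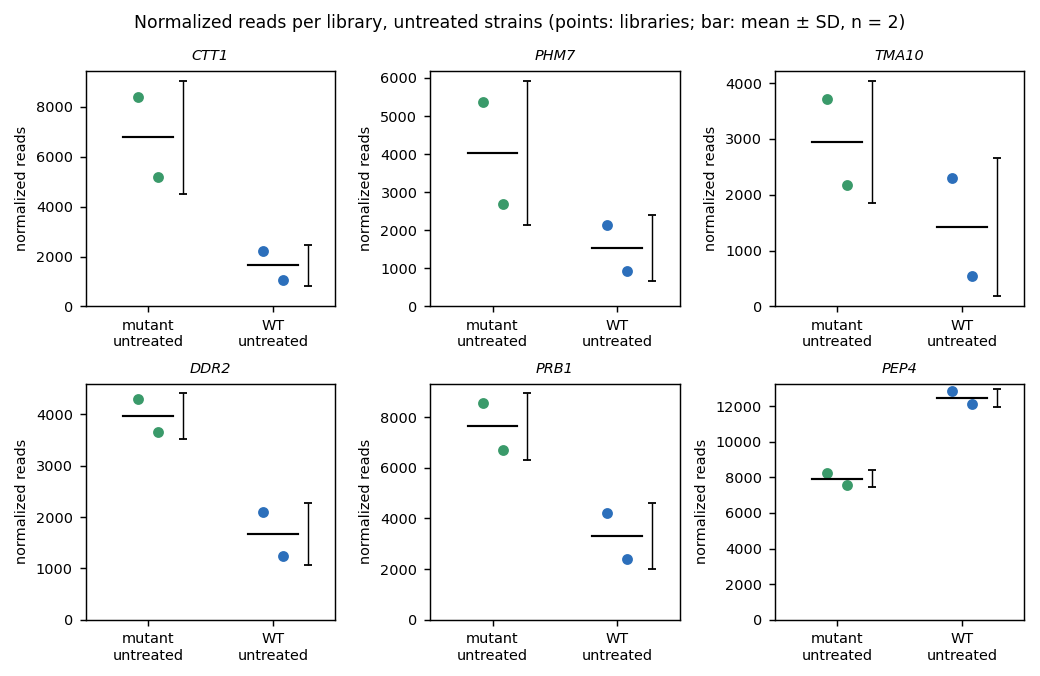
Normalized reads per library (vertical axis, starting at 0) of CTT1, PHM7, TMA10, DDR2, PRB1 and PEP4, with the untreated mutant left and untreated WT right; points are libraries and bars are mean ± SD (n = 2). The mutant points of CTT1, PHM7, DDR2 and PRB1 lie above both WT points, those of PEP4 below, and those of TMA10 overlap.

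In perchlorate the member estimates, mutant against WT, ranged from -0.84 to 0.97, against -0.66 to 2.10 between untreated strains. Of the 33 members 6 (18.2%) were higher in the mutant and 7 (21.2%) lower. Among all 5701 transcripts 16.3% were higher and 15.6% lower, so the shares of members lay not far above these. None of the 13 differed by 2-fold or more. The libraries are those of the perchlorate groups above. CTT1 had 26024 and 23829 normalized reads in the perchlorate-grown mutant, against 14318 and 11273 in perchlorate-grown WT, a log2 fold change of 0.97 ± 0.14 (adjusted p = 0.000988). HSP31 had 4889 and 4473 normalized reads in the perchlorate-grown mutant, against 3419 and 2811 in perchlorate-grown WT, a log2 fold change of 0.59 ± 0.12 (adjusted p = 0.00528). Both of these stress enzymes stood higher in each mutant library. SPG4 had 1189.6 and 1499 normalized reads in the perchlorate-grown mutant, against 866 and 806 in perchlorate-grown WT, a log2 fold change of 0.68 ± 0.12 (adjusted p = 0.00376). SPG5 had 2647 and 2761 normalized reads in the perchlorate-grown mutant, against 1657 and 1775 in perchlorate-grown WT, a log2 fold change of 0.66 ± 0.09 (adjusted p = 0.000928). Replicates of these stationary phase genes were close beside the distance between strains.

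On the lower side, PEP4 had 12916 and 14431 normalized reads in the perchlorate-grown mutant, against 23942 and 25049.6 in perchlorate-grown WT, a log2 fold change of -0.84 ± 0.11 (adjusted p = 0.000755). YGP1 had 29567 and 30767 normalized reads in the perchlorate-grown mutant, against 49865 and 51087 in perchlorate-grown WT, a log2 fold change of -0.74 ± 0.12 (adjusted p = 0.00231). In untreated cells the estimate for YGP1 had the other sign, 0.35 ± 0.11 (adjusted p = 0.076), and did not pass by limma, while it passed by DESeq2 (adjusted p = 0.0496) and without untreated WT replicate 1 (limma adjusted p = 0.0425). The other members lower in the mutant were SPI1, with a log2 fold change of -0.55, MSC1 (-0.49), GLK1 (-0.43), UGP1 (-0.37) and FMP16 (-0.37), and the other 2 higher were PRB1 (0.54) and TMA10 (0.32). Without mutant replicate 1, MSC1 (-0.50), GLK1 (-0.38), UGP1 (-0.36), FMP16 (-0.29), PRB1 (0.44) and TMA10 (0.34) lost the call, and each of the other 3 libraries left out took the calls of 4 or 5 of these same 6. Without WT replicate 1, 3 members were lower in place of 7, and without mutant replicate 1 or 2, 4 were. USV1, at -0.52, was called lower by edgeR (adjusted p = 0.0468) and DESeq2 (adjusted p = 0.0145) but not by limma (adjusted p = 0.059).

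Shocked and unshocked WT were compared to ask how the genes stand in cells regrown after the shock wave. All 33 of 33 members fell and 0 rose, where 17.3% of all 5668 transcripts fell. Falls of at least 2-fold were called for 29 members, and for 231 of all 5668 transcripts. The median log2 fold change of the members was -1.50, against 0.00 over all transcripts. Both shocked libraries lay below both unshocked libraries for 33 of 33 members, as for 36.7% of all transcripts. Members took 0.578% and 0.51% of all reads in shocked cells, against 1.50% and 1.53% in unshocked cells. Untreated WT, also grown without perchlorate or shock, took 0.699% and 0.467%, nearer to the shocked than to the unshocked libraries. The fall is relative to the unshocked group, and no test was made between unshocked and untreated WT. Which of the shocked and unshocked groups departed from untreated WT was not tested. No library is shared with the perchlorate comparisons.

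SPG4, the stationary phase gene, fell most. It had 50.4 and 46.0 normalized reads in shocked cells, against 472 and 439 in unshocked cells, a log2 fold change of -3.22 ± 0.15 (adjusted p = 0.000327). FMP16 had 252 and 216 normalized reads in shocked cells, against 1964 and 2109 in unshocked cells, a log2 fold change of -3.12 ± 0.11 (adjusted p = 0.000144). RTN2 had 798 and 624 normalized reads in shocked cells, against 6177 and 5140.0 in unshocked cells, a log2 fold change of -3.00 ± 0.15 (adjusted p = 0.000398). In these 3 the groups lay far apart and replicates were close together. CTT1 had 1391 and 827 normalized reads in shocked cells, against 7819.6 and 7609 in unshocked cells, a log2 fold change of -2.85 ± 0.23 (adjusted p = 0.000814). SPG1 had 11.2 and 20.2 normalized reads in shocked cells, against 98.8 and 132 in unshocked cells, a log2 fold change of -2.84 ± 0.35 (adjusted p = 0.00223). DDR2 had 1025 and 799 normalized reads in shocked cells, against 5367 and 5833 in unshocked cells, a log2 fold change of -2.63 ± 0.13 (adjusted p = 0.000398). The 2 shocked libraries of CTT1 and SPG1 differed more in proportion than those of the other 4 genes.

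**Figure D5:**
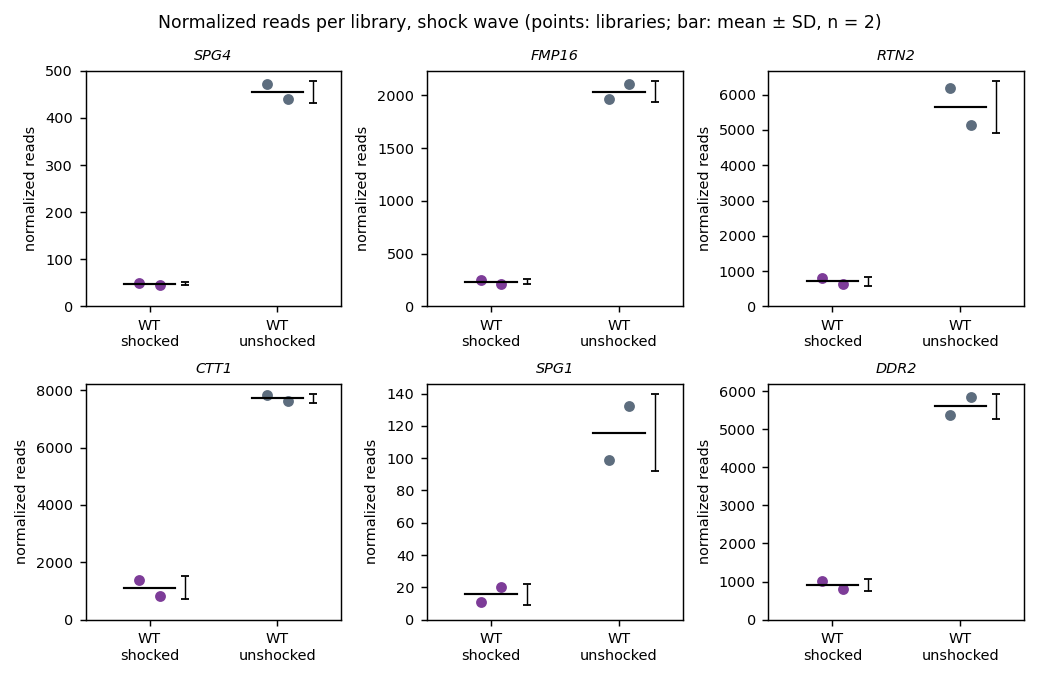
Normalized reads per library (vertical axis, starting at 0) of the 6 members with the largest log2 fold change, with shocked WT left and unshocked WT right; points are libraries and bars are mean ± SD (n = 2). Both shocked points lie below both unshocked points in all 6 panels.

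By role, the 5 genes placed in the cell surface group had a median log2 fold change of -2.23. They lay between -2.63 for DDR2 and -1.35 for YGP1, with PHM7 at -2.27, SPI1 at -2.23 and SPS100 at -1.96. RTC3 fell by 2.42 log2, MSC1 by 2.14, DCS2 by 2.09, TFS1 by 2.08, GAD1 by 1.79 and OM45 by 1.66. GLK1 fell by 1.50 and UGP1 by 1.22, while USV1 fell by 1.64 and XBP1 by 1.14. The 6 proteolysis genes fell least as a group by their median, -1.21. They ranged from -2.08 for TFS1 to -0.86 for PEP4, with PAI3 at -1.47, TMA17 at -1.30, PRB1 at -1.12 and UBI4 at -1.09. SYM1, MOH1, GPX1, PNC1, DCS1 and HSP31 lay between -1.40 and -0.91, TMA10 at -0.95, and SPG5 had the smallest estimate, -0.38 ± 0.10 (adjusted p = 0.0294). XBP1, SPG5, TMA10, TMA17 and PAI3 lost the call without unshocked replicate 1 or replicate 2, and MOH1, SPG1 and SPS100 without replicate 2. Their estimates kept the sign in these fits, from -0.32 for SPG5 to -2.63 for SPG1, both without unshocked replicate 2. XBP1 also did not pass by DESeq2 (adjusted p = 0.104). SPG5 was lost without shocked replicate 2 (-0.28).

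Across the 33 members the shock and WT perchlorate log2 fold changes had a Pearson r of -0.73 and a Spearman rho of -0.80, against -0.65 and -0.62 across the 5642 transcripts tested in both. These comparisons share no library, but all points of each come from the same 4 libraries and genes are not independent replicates. FMP16, RTN2, CTT1, DDR2, RTC3 and SPG1 were far from 0 in both, with log2 fold changes of 2.59 (SPG1) to 3.67 (FMP16) for perchlorate and of -3.12 (FMP16) to -2.42 (RTC3) for shock. SPS100, PAI3 and MOH1 were near the top for perchlorate, at 4.37, 3.09 and 2.66, but at -1.96, -1.47 and -1.38 for shock.

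The responses were set beside the AGGGG matches of the windows shown earlier. In WT with perchlorate the 16 members with 2 or more matches had a median log2 fold change of 1.85, the 10 with 1 match 1.76 and the 7 with none 1.21. Ranges overlapped widely, from 0.56 to 4.37 with 2 or more matches and from 0.32 to 2.59 with none. GLK1, with 3 matches, changed by 1.00 log2, while SPG1, with none, changed by 2.59, so the number of matches did not order the members. Over all transcripts tested with a window, 45.9% of the 222 with 2 or more matches rose, 24.2% of the 1090 with 1 match and 10.1% of the 4345 with none. With shock 60.4% of those with 2 or more matches fell, 32.6% of those with 1 and 11.3% of those with none. These shares include the members, 16 of those with 2 or more matches, 10 with 1 and 7 with none. Other known targets of Msn2 and Msn4 were not taken out either. The members with none were DCS1, PEP4, SYM1, YGP1, SPG1, SPG4 and SPG5, of which YGP1 and SPG1 held AGGGAT.

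Other genes of the pathway were taken from lists, also chosen with earlier results of these data known. Of 57 further targets of Msn2 and Msn4, 48 rose in perchlorate-grown WT, 44 in the perchlorate-grown mutant and 0 fell in either, where 14.3% and 18.0% of all transcripts rose, while 55 fell and 0 rose after shock, where 17.3% of all fell. The largest changes in WT with perchlorate were those of GRE1, a hydrophilin, at 5.60 log2, TKL2, a transketolase, at 4.82, and SIP18, a phospholipid-binding hydrophilin, at 4.71. Between untreated strains 12 of the 57 (21.1%) were higher and 8 (14.0%) lower in the mutant, where 11.0% of all transcripts were higher and 11.6% lower. In perchlorate 6 (10.5%) were higher and 16 (28.1%) lower in the mutant, where 16.3% of all were higher and 15.6% lower, with the chaperone genes SSA4 (-1.69) and HSP26 (-1.29) among the lower ones. GRE1 was the 1 of 57 that passed the interaction test, at -1.33.

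Of 46 regulators of the response 7 (15.2%) rose and 4 (8.70%) fell in perchlorate-grown WT, where 14.3% of all transcripts rose and 12.1% fell. In the perchlorate-grown mutant 9 (19.6%) rose and 7 (15.2%) fell, where 18.0% of all rose and 15.7% fell. None of these changes reached 2-fold, and the shares lay near those of all transcripts. MSN2 and MSN4 had log2 fold changes of 0.36 (adjusted p = 0.0667) and 0.08 (adjusted p = 0.823) in WT. In the mutant MSN4 fell, at -0.69 (adjusted p = 0.00671), while MSN2 was at 0.25 (adjusted p = 0.123). After shock 18 of 46 (39.1%) fell and 2 rose, where 17.3% of all transcripts fell and 18.1% rose. Among those that fell were the protein kinase A subunit gene TPK2 (-1.01) and the G protein gene GPA2 (-0.81). Between untreated strains 1 (2.17%) was higher and 2 (4.35%) lower in the mutant, where 11.0% of all transcripts were higher and 11.6% lower. In perchlorate 6 (13.0%) were higher and 7 (15.2%) lower, near the 16.3% and 15.6% of all transcripts. The phosphatase gene PSR1 was lower in the mutant in both, at -0.91 untreated and -1.01 in perchlorate. None of the 46 passed the interaction test by limma.

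Of 15 other stationary phase genes 9 rose in perchlorate-grown WT, 11 rose and 1 fell in the perchlorate-grown mutant, and 10 fell after shock, where 14.3%, 18.0% and 17.3% of all transcripts moved that way. FMP45, a membrane protein related to Sur7, was at 2.79 log2 in WT with perchlorate and at -3.18 with shock. SNZ1 and SNO1, a gene pair of vitamin B6 synthesis, had a larger response in the mutant than in WT, by 1.91 and 2.73 log2 in the interaction test. Of 6 other vacuolar peptidases and inhibitors 4 rose with perchlorate in each strain and 6 fell after shock, beside the same shares of all transcripts. PBI2, the inhibitor of proteinase B, led at 1.38 in WT, 0.94 in the mutant and -1.08 with shock. Between strains 4 of the 6 were lower in the untreated mutant and 5 in the perchlorate-grown mutant, with 0 higher, where 11.6% and 15.6% of all were lower, the direction also seen for the member PEP4. DAP2, a dipeptidyl aminopeptidase of the vacuole, was lowest at -1.35 untreated and -1.17 in perchlorate.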

How the data were processed

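The sample titles gave the groups of the 12 libraries. Reads were trimmed with Trim Galore, checked with FastQC and aligned with HISAT2 by the authors, per the submitters' processing notes. The sources used here give neither the counting tool, nor the strand it used, nor the build. The libraries were made with a directional kit, per the labels' protocols. For each of 5 comparisons the authors deposited normalized counts, a signal equal to reads over the size factor of the library, normalized within each table. The authors' deposited log2 fold changes, p-values and q-values in the same tables were not used for the results. Of 5970 transcripts 3 without an entry in the comparison sheets are not reported here.

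Tests used limma 3.58.1 in R 4.3.3 on log2(value + 1) with eBayes and a trend in intensity, within each table, for transcripts with a mean of at least 10, over all transcripts at a Benjamini-Hochberg adjusted p under 0.05. Tables were normalized separately, so a library has slightly different values in different tables. Whole reads were recovered for 100.0% of values (within 0.01 reads) and used for edgeR 4.0.16 and DESeq2 1.42.0 as alternatives. The fits were tested on simulated data with 200 transcripts changed 2-fold. There limma recovered 80% (interaction) to 99.5% (perchlorate in the mutant) of them. Of its calls 5.24% (perchlorate in the mutant) to 10.73% (between untreated strains) were false, above the nominal level. Alternatives were another pseudocount, filter, scaling or tool, a replicate block, and each library left out. Names came from RefSeq, and 15 of 17 other stationary phase genes and 6 of 7 vacuolar genes were matched. Replicates differed beyond sampling noise in every group.

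The members and lists were chosen with earlier results of these data known. Every member is named, and some items are not reported here. Library values are given for the 12 largest changes in WT with perchlorate, 8 in the mutant and 6 in each other comparison. Other lists give up to 3 called genes with the largest change, besides MSN2 and MSN4, named after their values were seen.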

Additional observations from a re-analysis of the deposited data

Results flagged for a closer look

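The response of YGP1 to perchlorate differed between the strains, by -1.07 on the log2 scale (mutant minus WT, limma interaction, adjusted p = 0.00818). It was 0.86 ± 0.11 in the mutant and 1.93 ± 0.14 in WT (SE, n = 2 libraries a group). The same sign was found with edgeR, with DESeq2 and without any 1 of the 8 libraries.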

How the results depend on the processing

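Changes of pseudocount, filter and scaling moved none of the member counts past 1.5 times, and no called member reversed its direction in any fit. Members that did not pass changed sign more easily: with 1 library left out, 16 did between untreated strains, 14 in the interaction, 7 between strains in perchlorate and 1 in the perchlorate response of each strain (TMA10), and by another tool 1 in each of the first 3. With 1 library left out, the members called higher in the untreated mutant against untreated WT ranged over 4 to 19 (6 with all libraries) and those called lower over 1 to 2. Between strains in perchlorate the lower members ranged over 3 to 7 (7 with all), and in the perchlorate response of the mutant over 0 to 1 (0 with all). In the interaction the members called below 0 ranged over 1 to 15 (1 with all), and by DESeq2 there were 2. With 2 libraries a group, replicate spread limits what each test can call. The cause of these moves was not tested.

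Replicate numbers are shared across groups, but the labels do not say that a number marks a shared batch, and each comparison has 2 pairs, so they were not taken as pairs. Deviations of libraries with the same number correlated at 0.12 to 0.51 across transcripts. With a replicate block 18 members were higher in the untreated mutant, PHM7, TMA10, RTC3 and YGP1 among them, 10 higher and 12 lower in the perchlorate-grown mutant than in WT, and 2 were below 0 in the interaction. The block called 1245 transcripts higher and 1213 lower in WT with perchlorate (811 and 688 without it), 1226 and 1256 between untreated strains (621 and 656) and 1514 and 1669 between strains in perchlorate (931 and 887). In the interaction it called 67 lower, and DESeq2 80, against 39.

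Counts over all transcripts also moved when 1 library was left out. They ranged over 353 to 1285 higher and 156 to 1096 lower in WT with perchlorate, and 265 to 996 higher and 188 to 1070 lower with shock (1026 and 981 with all). Between untreated strains they ranged over 407 to 773 higher and 348 to 766 lower, and in the interaction over 58 to 180 above 0 (108 with all) and 16 to 208 below.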

Other observations

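Members took 1.50% and 1.53% of all reads in unshocked WT, a group with no perchlorate, and 0.699% and 0.467% in untreated WT. The labels give these groups the same strain, medium and harvest range. They belong to different tables and no test was made between them.

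Replicate 1 lay above replicate 2 for 27 of 33 members in shocked WT and 20 in unshocked WT, for 24 in perchlorate-grown WT and 33 in untreated WT, and for 12 in the perchlorate-grown mutant and 32 in the untreated mutant.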
